A study of Bos taurus with 6 samples.

Results

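Wnt ligands, their receptors and their secreted antagonists were followed in the intramuscular fat (IMF) of steers and bulls of the Qinchuan breed of cattle. The members were all genes of the mRNA count table named WNT, FZD, SFRP or DKK with a number, together with FRZB, WIF1, LRP5, LRP6, CTNNB1, TCF7L1 and TCF7L2. This gave 42 of the 25444 genes in the table, namely 17 ligands, 10 Frizzled receptors, 2 co-receptors, 10 secreted antagonists and 3 genes of the intracellular arm. AXIN2, WNT4 and WNT16 were not analysed here. The IMF was dissected from the sternomandibularis muscle at 24 months of age. Steers (group CM) had been castrated surgically at 6 months and bulls (group IM) were left intact, and both groups were weaned at 3 months and received the same feed. Each group is 1 pooled library of total RNA, made from 6 animals according to the series design and from 3 according to the sample labels, and the animals shared a sire.

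Wnt proteins are secreted lipid-modified signals that bind Frizzled receptors. With LRP5 or LRP6 as co-receptor they stabilise β-catenin, which enters the nucleus and activates target genes with TCF factors, whereas other Wnt proteins signal through Frizzled or ROR receptors without β-catenin. Secreted proteins of the SFRP, WIF and DKK families limit this signalling by binding the ligand or the co-receptor. In fat tissue, ligands such as WNT10B are known to keep preadipocytes undifferentiated, and SFRP5 is known as an antagonist released by fat cells.

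The deposited table holds raw read counts, 12677375 for steers and 9868415 for bulls, and levels in CPM are counts per 1000000 of these totals. Counts were divided by size factors of 1.04 and 0.959 for the fold changes, which are given as log2 of steers over bulls. Each gene was compared between the 2 libraries with an exact binomial test, and calls required both a fold over 2 and a Benjamini-Hochberg adjusted p under 0.05. With 1 library per group the differences have no replicate check, so this test compares 2 pools of RNA and not the conditions. Brackets give 95% Clopper-Pearson intervals, which take in no error but that of counting reads, and PCR copies make reads less than independent. The counting annotation's gene lengths were not at hand, so a count is set against that of the same gene in the other library and never read as a level relative to another gene. In tissue pools, fewer cells of a type and less RNA per cell cannot be told apart.

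In steers, the transcripts of SFRP2 and SFRP4, both secreted antagonists, and of the ligand WNT2 were upregulated, and that of the receptor FZD3 was downregulated. Of the 33 members with a count, 3 were called up and 1 down, against a background over all 17752 genes tested of 4.37% up and 8.13% down. Their median log2 fold change was 0.06 with a prior of 0.5 counts, beside 0.01 over all genes tested. Among the 27 members with at least 10 counts the median was 0.21, beside 0.01 over the 14540 genes at that depth, of which 5.10% were called up and 9.59% down. Scaling by library totals moved the median of all genes to -0.23, and the calls were then 2 up and 2 down. WNT2 lay at 0.88 and was not called, and FZD1 was called at -1.02.

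**Figure D1:**
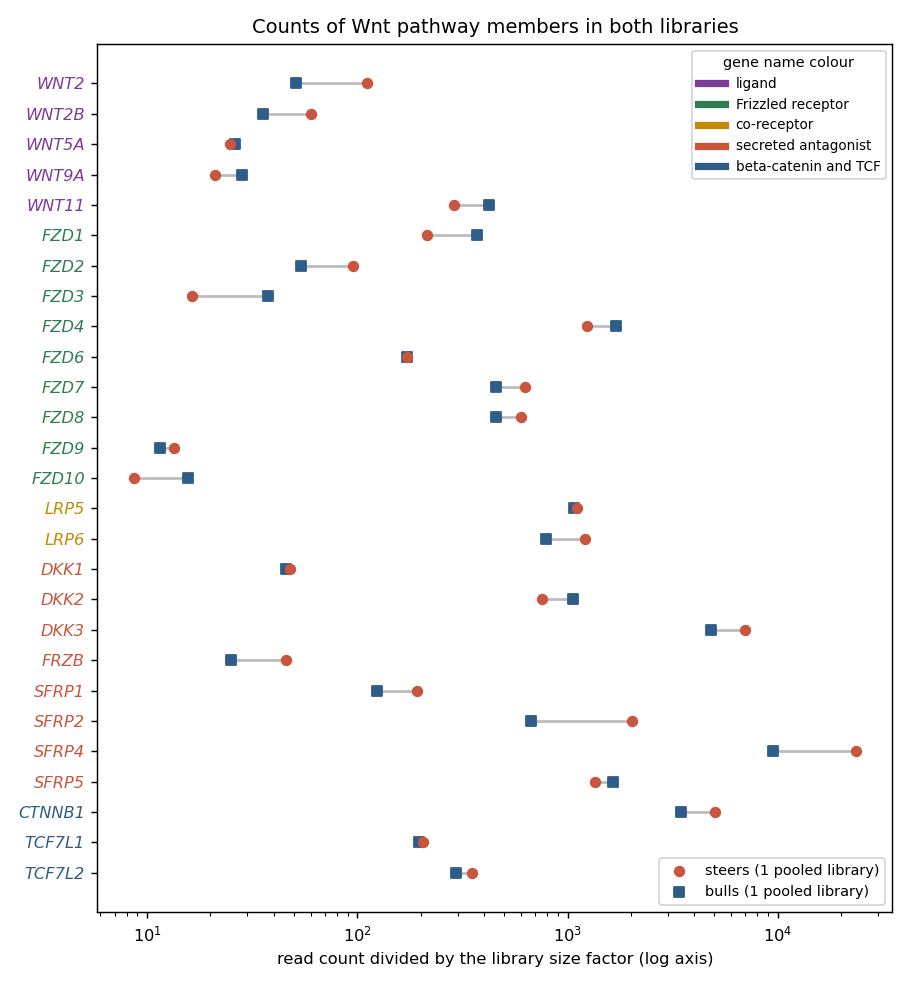
Read counts divided by the library size factor (log axis) for the 27 members with at least 10 counts, with steers as red circles and bulls as blue squares, 1 pooled library each. The widest gaps towards steers are those of SFRP2 (2118 against 642 raw counts), SFRP4 (24662 against 9064) and WNT2 (116 against 49), and the widest towards bulls is that of FZD3 (17 against 36).

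Among the ligands, reads were few. WNT2, a ligand known to act through β-catenin, had 116 counts in steers and 49 in bulls, giving a log2 fold change of 1.12 (0.63 to 1.63, adjusted p = 1.66e-05 from the exact binomial test). Its relative WNT2B had 63 and 34 counts, at a log2 fold change of 0.77 (0.14 to 1.41), which passed the adjusted p at 0.0391 in the exact test but not the fold threshold. WNT11, known for signalling without β-catenin, lay on the other side of 0 with 300 counts in steers and 404 in bulls, at -0.55 (-0.77 to -0.33). It too stayed inside the 2-fold limits and was not called.

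WNT5A, the ligand that SFRP5 is known to bind, had 26 counts in the steers' pool and 25 in the bulls'. Its log2 fold change of -0.07 had an interval from -0.92 to 0.79, and at this depth a rise would have been called only from 1.14 and a fall only from -1.12. WNT9A had 22 and 27 counts and lay at -0.42 (-1.30 to 0.45). The WNT9A interval takes in a 2-fold difference downwards, while a fall was called only from -1.17, and the WNT5A interval does not reach 2-fold in either direction.

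The other 12 ligands had fewer than 10 counts over both libraries. WNT10B, the ligand best known for restraining adipogenesis, had 2 counts in steers against 3 in bulls, and WNT5B had 2 against 5. WNT3A had 4 counts in steers and 0 in bulls, with an adjusted p of 0.275 in the exact binomial test. With bulls set at a floor of 3 counts the scaled ratio is 1.23. The interval of its log2 fold change reaches down to -0.72, so a lower level in steers is not left out. WNT9B had 0 and 2 counts. WNT1, WNT3, WNT6, WNT7A, WNT7B, WNT8A, WNT8B and WNT10A had no count in either library, which allows a level of up to 0.237 CPM in steers and 0.304 in bulls. Ligand genes that neighbour each other in the ARS-UCD2.0 assembly form 4 pairs, WNT1 with WNT10B, WNT3A with WNT9A, WNT6 with WNT10A and WNT9B with WNT3. In these pairs only WNT9A passed 10 counts.

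Summed over the 17 ligands there were 535 counts in steers and 549 in bulls, 42.2 and 55.6 CPM. With size factors the sum had a log2 fold change of -0.16 (-0.33 to 0.01), which counting error alone covers. With library totals it lay at -0.40, below that interval, so this reading depends on the scaling. The makeup of the sum differed between the pools. WNT2 held 21.7% (18.3 to 25.4) of the ligand reads in steers and 8.93% (6.68 to 11.6) in bulls. For WNT11 the shares were 56.1% (51.8 to 60.3) and 73.6% (69.7 to 77.2). A share of this kind depends on transcript length in each library alike, and it is unaffected by how the libraries are scaled.

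**Figure D2:**
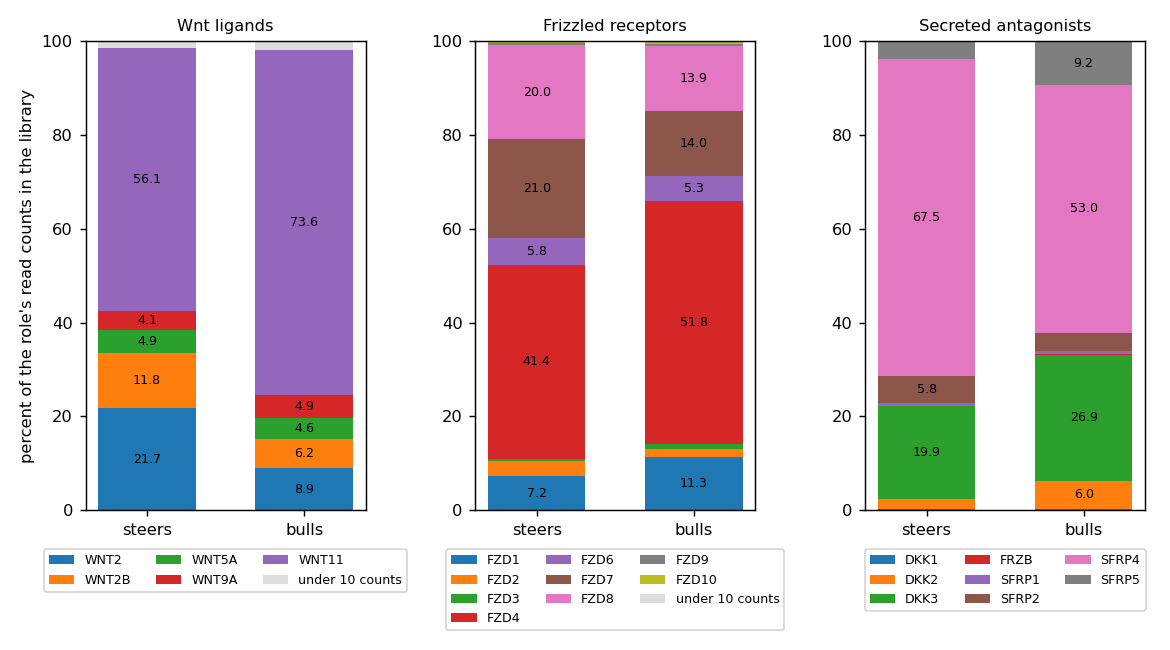
Percent of the read counts of the Wnt ligands (left), Frizzled receptors (middle) and secreted antagonists (right) held by each gene, in the pooled library of steers and of bulls, with genes under 10 counts in grey. In steers WNT2, FZD7, FZD8 and SFRP4 take larger parts of their stacks (21.7%, 21.0%, 20.0% and 67.5%) than in bulls (8.93%, 14.0%, 13.9% and 53.0%), and WNT11, FZD4 and SFRP5 smaller ones.

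The Frizzled receptors, membrane proteins that bind Wnt through a cysteine-rich domain, had log2 fold changes on both sides of 0, also with library totals. FZD3, a receptor known from planar polarity and axon guidance, had 17 counts in steers and 36 in bulls. It was the member called downregulated, at -1.20 (-2.13 to -0.34, adjusted p = 0.0156 from the exact binomial test). This call rests on 53 counts and was lost when the pools were taken to vary by a biological coefficient of variation (BCV) of 0.1 (adjusted p = 0.0714, edgeR exact test).

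FZD1, FZD2 and FZD7 form a subfamily of close relatives, and their values lay on both sides of 0. FZD1 had 225 counts in steers and 355 in bulls, giving a log2 fold change of -0.78 (-1.03 to -0.54). FZD2 had 99 and 52 counts, at 0.81 (0.31 to 1.32). FZD7 had 654 and 438 counts, at 0.46 (0.28 to 0.63). None of the 3 was called with size factors, although the interval of each left out 0, and their signs were the same with library totals.

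FZD4, which also serves as the receptor of the ligand norrin in blood vessels, had 1288 counts in steers and 1624 in bulls, at -0.46 (-0.56 to -0.35). FZD8 had 624 and 436 counts, at 0.40 (0.22 to 0.57), while FZD5 of the same subfamily had 4 in each library. FZD6, the closest relative of FZD3, had 179 and 165 counts, with a log2 fold change of -0.0047 (-0.32 to 0.31). FZD6 thus lay near 0 with an interval that leaves out a 2-fold difference in either direction.

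FZD9 with 14 and 11 counts and FZD10 with 9 and 15 were too sparse for a modest difference to be called. The log2 fold change needed was 1.88 or -1.79 for FZD9, whose own value was 0.23 (-1.02 to 1.51), and 1.80 or -1.71 for FZD10, at -0.86 (-2.23 to 0.43). All 10 Frizzled genes together had 3113 counts in steers and 3136 in bulls, giving a log2 fold change of -0.13 (-0.20 to -0.06). Within that sum FZD4 held 41.4% (39.6 to 43.1) of the reads in steers and 51.8% (50.0 to 53.5) in bulls. FZD7 held 21.0% (19.6 to 22.5) and 14.0% (12.8 to 15.2).

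The co-receptors LRP5 and LRP6 carry the Wnt signal towards β-catenin together with a Frizzled. LRP6 had 1260 counts in steers and 753 in bulls, at 0.62 (0.49 to 0.75), a difference beyond counting error but under 2-fold. LRP5 had 1156 and 1032 counts, and its log2 fold change of 0.04 (-0.08 to 0.16) became -0.20 with library totals. LRP6 accordingly gave 52.2% (50.1 to 54.2) of the co-receptor reads in steers and 42.2% (39.9 to 44.5) in bulls.

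**Figure D3:**
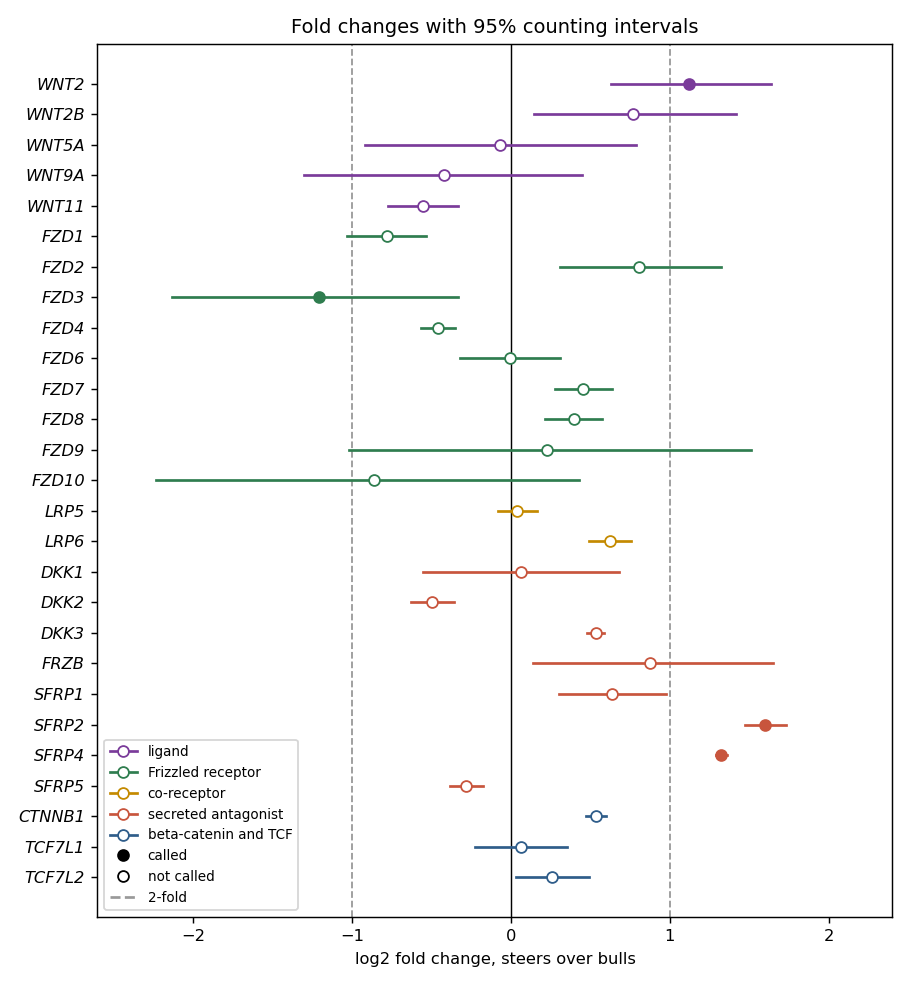
Log2 fold change of steers over bulls for the 27 members with at least 10 counts, coloured by role, with horizontal bars for the 95% Clopper-Pearson counting interval and dashed lines at 2-fold. Filled points mark the called genes, which are SFRP2 at 1.60, SFRP4 at 1.32, WNT2 at 1.12 and FZD3 at -1.20, and the bars widen for genes with few counts such as FZD9 and FZD10.

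The secreted antagonists held the highest log2 fold changes among the 27 members with at least 10 counts, those of SFRP2 and SFRP4. SFRP2, a secreted frizzled-related protein with a Frizzled-like domain, had 2118 counts in steers and 642 in bulls, 3.03-fold more after scaling. Its log2 fold change was 1.60 (1.47 to 1.73, adjusted p = 1.09e-154 from the exact binomial test). SFRP4, a related protein found in the circulation and in fat tissue, had 24662 and 9064 counts, 2.50-fold more, at 1.32 (1.29 to 1.36). Both were called with library totals as well, at 1.36 and 1.08. They were also called at an assumed BCV of 0.2, with adjusted p of 0.00483 and 0.0283 in the edgeR exact test, and WNT2 at 0.1 only (adjusted p = 0.00400). At an assumed BCV of 0.4, 0 of the 42 members were called by edgeR.

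Both genes stood high in the ordering of all genes by fold change. Of the 14540 genes with at least 10 counts, 474 had a log2 fold change equal to or above that of SFRP2, 638 that of SFRP4 and 808 that of WNT2.

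The remaining SFRP genes did not pass the fold threshold. SFRP1 had 201 counts in steers and 119 in bulls, at 0.63 (0.30 to 0.97). FRZB, the gene of another secreted frizzled-related protein, had 48 and 24 counts, at 0.88 (0.14 to 1.65, adjusted p = 0.0464 from the exact binomial test). SFRP5 had 1409 and 1573 counts in the same order and lay on the other side of 0, at -0.28 (-0.39 to -0.18). The fat cell antagonist and the 4 other members of its family therefore differed in sign, and with library totals the signs were the same.

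The Dickkopf proteins DKK1, DKK2 and DKK4 are known to bind LRP5 and LRP6, whereas DKK3 is a divergent relative that is not known as a classical Wnt inhibitor. DKK3 had 7254 counts in steers and 4599 in bulls, at 0.54 (0.48 to 0.59). DKK2 had 791 and 1023 counts, at -0.49 (-0.63 to -0.36). DKK1 had 50 and 44 counts, at 0.06 (-0.55 to 0.68) and at -0.18 after scaling by totals. DKK4 had no counts, and WIF1, which binds Wnt ligands directly, had 1 and 2.

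The 10 antagonist genes summed to 36534 counts in steers and 17090 in bulls, 2882 and 1732 CPM, a log2 fold change of 0.97 (0.95 to 1.00) that became 0.73 with library totals. SFRP4 and SFRP2 supplied most of this difference. Without them the remaining 8 antagonists had 9754 and 7384 counts, at 0.28 on the log2 scale (0.24 to 0.32), which is 769 and 748 CPM. DKK3 held 7254 and 4599 of these counts, and the other 7 antagonists summed to 2500 and 2785, at -0.28 (-0.36 to -0.20). Within the antagonist reads SFRP4 held 67.5% (67.0 to 68.0) in steers and 53.0% (52.3 to 53.8) in bulls. SFRP5 held 3.86% (3.66 to 4.06) and 9.20% (8.77 to 9.65), and DKK2 2.17% (2.02 to 2.32) and 5.99% (5.63 to 6.35).

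On the intracellular side, CTNNB1 encodes β-catenin, which acts both in Wnt signalling and at cadherin junctions. It had 5259 counts in steers and 3334 in bulls, at 0.54 (0.47 to 0.60), below the 2-fold threshold. TCF7L2, a TCF factor that binds β-catenin, had 368 and 282 counts, at 0.26 (0.03 to 0.49, adjusted p = 0.0602 from the exact binomial test). TCF7L1, a TCF factor known mainly as a repressor, had 215 and 189 counts, at 0.06 (-0.22 to 0.35), and -0.18 with library totals. Neither TCF gene was called, and the intervals of both leave out a 2-fold difference.

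By the adjusted p alone, without a fold threshold, 12 members were higher in steers and 6 were lower. Over all 17752 genes tested 19.9% were higher and 18.3% lower by that rule. These genes include 3212 with 1 to 9 counts, and the 33 members include 6, so the depths were not matched. With library totals, an alternative added after the data were seen, the adjusted p alone gave 8 members higher and 7 lower, beside 10.5% and 30.2% of all genes. The 12 were WNT2, WNT2B, FZD2, FZD7, FZD8, LRP6, DKK3, FRZB, SFRP1, SFRP2, SFRP4 and CTNNB1, and the 6 were WNT11, FZD1, FZD3, FZD4, DKK2 and SFRP5. With library totals WNT2B, FZD2, FZD8 and FRZB no longer passed, and LRP5 passed as lower. Summed over the 42 members the counts were 48440 in steers and 26365 in bulls, giving a log2 fold change of 0.76 (0.73 to 0.78). Without SFRP4 and SFRP2 the sum was at 0.26 (0.23 to 0.29), and with library totals the 2 pools had 1709 and 1688 CPM for these 40 genes.

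**Figure D4:**
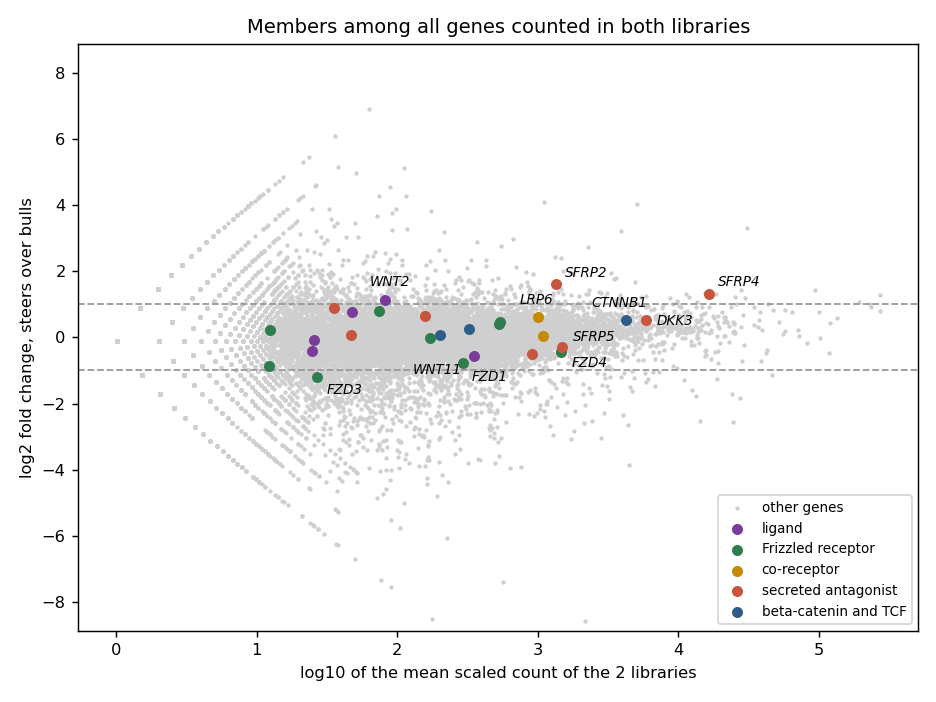
Log2 fold change of steers over bulls against the log10 of the mean scaled count for all genes counted in both libraries (grey), with the members that have at least 10 counts coloured by role and dashed lines at 2-fold. SFRP2 and SFRP4 lie above the upper line at high counts, WNT2 just above it at 116 and 49 counts and FZD3 just below the lower line at 17 and 36, while the grey cloud fans out as counts fall.

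Other genes of the pathway came from a list of 67 genes, of which 62 were in the table and 59 had a count. Of these 59, 3 were called up and 1 down, against the background of 4.37% and 8.13%, and the median log2 fold change was -0.03. ROR2, a receptor tyrosine kinase that WNT5A is known to bind, had 306 counts in steers and 137 in bulls, at 1.04 (0.74 to 1.34). NKD2, which encodes a Dishevelled-binding inhibitor, had 206 and 73 counts, at 1.37 (0.98 to 1.78). SOST, the gene of the LRP5 and LRP6 inhibitor sclerostin that is best known from bone, had 23 and 5 counts, at 2.08 (0.65 to 3.83).

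SOSTDC1, a secreted protein that binds LRP co-receptors and bone morphogenetic proteins, was the pathway gene called down. It had 28 counts in steers and 154 in bulls, at -2.58 (-3.22 to -1.99). With library totals ROR2 was not called, and 3 genes of this list were called down, SOSTDC1 and, named after their values were seen, TLE4 and WISP1 at -1.15 and -1.20. The secretion genes PORCN and WLS, which lipidate and export Wnt proteins, had 817 counts in steers and 850 in bulls together, and neither was called. The R-spondins, secreted amplifiers of Wnt signalling, summed to 17 and 16 counts over 4 genes.

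None of the 12 genes of the cytosolic machinery, which holds the Dishevelled proteins, the β-catenin destruction complex and its kinases, was called. Their log2 fold changes ran from -0.30 to 0.55, with a median of 0.03. The 10 nuclear partners in the table ran from -1.08 to 0.56 with a prior of 0.5 counts, and 0 were called. Of the 9 planar polarity genes 0 were called. VANGL2, named after its values were seen, had 2 and 9 counts and exceeded 2-fold without passing the adjusted p (0.109, exact binomial test). For the 7 genes listed as Wnt targets the median was -0.18, and 0 were called in either direction. Their values ran from -0.95 to 3.34 with a prior of 0.5 counts. The highest, named after its values were seen, was that of SP5 with 5 counts in steers and 0 in bulls. Of the same list, MYC lay at -0.18 and CCND1 at 0.44. Over all genes tested 4.37% were called up and 8.13% down, and whether 0 calls in these short lists fall below that share was not tested. By adjusted p alone, 1 cytosolic gene was higher and 2 lower. The nuclear list had 2 and 1, planar polarity 3 and 1 and the targets 2 and 2, beside 19.9% and 18.3% of all genes.

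Marker lists of cell types were read in the same libraries. For the labelled tissue, all 5 adipocyte markers were counted in both pools, from 1153 to 9931 counts, with 1 called down (FABP4, at -1.06) and a summed log2 fold change of -0.35 (-0.37 to -0.32). CKM and ACTA1 of muscle fibres were present too. Of the 8 fibroblast and matrix markers, the list whose genes are made by stromal cells, 2 were called up, and the list ran from -0.48 for PDGFRA to 1.27 for COL3A1. Their sum was 95165 CPM in steers and 57964 in bulls, giving a log2 fold change of 0.95 (0.95 to 0.96). Most reads of this sum were of COL1A1, COL1A2 and COL3A1. Of the other markers, THY1 lay at 1.00, LUM at 0.95, FBN1 at 0.35 and DCN at 0.04, besides PDGFRA. The log2 fold change was 1.60 for SFRP2, 1.32 for SFRP4 and 1.12 for WNT2, against a median of 0.94 over the 8 markers. Whether the content of stromal cells or matrix RNA in the pools accounts for any of these values was not tested.

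Other cell types differed between the pools as well. All 4 T lymphocyte markers and 3 of the 5 myeloid markers were called down in steers, with sums of 5.99 against 52.9 and 1129 against 2717 CPM. The 6 mesothelial and epithelial markers summed to 250 counts in steers and 50 in bulls, with 3 called up. These were the keratins KRT8 (148 and 7 counts) and KRT18 (77 and 20) and EPCAM (8 and 0), while the mesothelial markers MSLN and UPK3B had 2 and 10 counts and 5 and 8. Of the 7 skeletal muscle markers 1 was called up and 1 down, with a summed log2 fold change of -0.61 (-0.64 to -0.59). For the B lymphocytes, where MS4A1 had no count, the sums were 24 and 93 counts, with 1 of the 3 counted markers called down. The endothelial sum lay at -0.04 (-0.08 to 0.00), that of pericytes and smooth muscle at -0.07 (-0.10 to -0.03) and that of nerve and glia at 0.41 (0.30 to 0.51). Single endothelial markers ran from -0.66 for TEK to 0.16 for PECAM1. Those of pericytes and smooth muscle ran from -0.66 for ACTA2 to 0.45 for TAGLN. What part these cell types had in the values of the members was not tested.

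**Figure D5:**
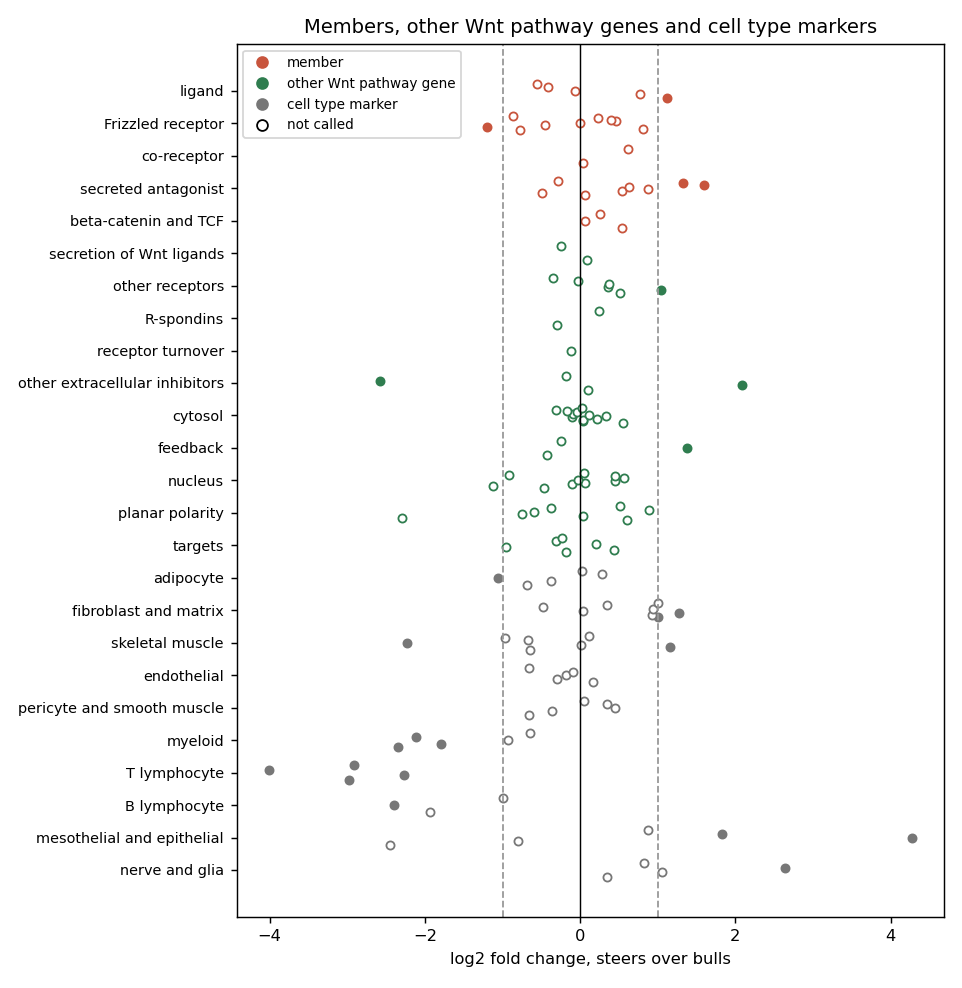
Log2 fold change of steers over bulls for each gene with at least 10 counts over both libraries and at least 1 in each, in rows by role for the members (red), for the other Wnt pathway genes (green) and for the cell type markers (grey), with filled points for called genes and dashed lines at 2-fold. SFRP2, SFRP4 and WNT2 lie right of the upper line beside COL3A1 of the fibroblast and matrix row at 1.27, the cytosol row stays between -0.30 and 0.55, and the T lymphocyte row lies wholly to the left of -1.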

How the data were processed

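Pooled RNA of each group was sequenced on an Ion Proton, and per the methods the authors removed adaptors and low-quality reads and aligned the rest to a bovine genome with MapSplice. The sample labels name GRCh37.p13, a human build, so no coordinates are given. How reads were counted, and whether by strand, is not given in the sources used here. Per gene, the authors deposited raw counts of each library. The miRNA counts were not used.

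Size factors were medians of ratios to the geometric mean of both libraries. An exact binomial test (two-sided, the smaller tail doubled) was adjusted by Benjamini-Hochberg over all genes with at least 1 count. Genes were called with an absolute log2 fold change over 1 and an adjusted p under 0.05. The test was first run on simulated counts with counting error only, which cannot show how it behaves when animals or pools vary. Python 3.11.15, numpy 2.4.6, scipy 1.17.1 and edgeR 4.0.16 were used. Members with at least 10 counts over both libraries, and the called genes of the pathway list, are named. Members, lists and tests were chosen with earlier results of these data known. Symbols were matched to RefSeq genes of ARS-UCD2.0, where all 42 members were found. Alternatives were scaling by library totals or TMM, a minimum of 10 counts, a prior of 5 counts, no fold threshold, and assumed biological coefficients of variation (BCV) of 0.1, 0.2 and 0.4 in edgeR's exact test. Adjusted p alone with either other scaling was added after seeing the data. Sequences were not used here.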

Additional observations from a re-analysis of the deposited data

How the results depend on the processing

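No paired analysis was possible because the mRNA data hold 1 library per group, and for the same reason no library could be left out. TMM scaling, a minimum of 10 counts and a prior of 5 counts left all 27 members with at least 10 counts with the same call and sign, although by adjusted p alone FRZB passed at 0.0464 and not with TMM (0.0531, exact binomial test). With an assumed BCV of 0.1, 3 members were called up and 0 down. An assumed BCV of 0.2 left 2 members up and 0 down and 1 pathway gene up and 1 down, with 368 genes up and 762 down over the whole table, against 776 and 1444. With an assumed BCV of 0.4 the calls were 0 members up and 0 down, 0 pathway genes up and 0 down, and 52 genes up and 93 down. Without a fold threshold they were 12 members up and 6 down, 12 pathway genes up and 9 down, and 3535 genes up and 3254 down. Without it, and chosen after seeing the data, library totals gave 8 members up and 7 down, 7 pathway genes up and 22 down, and 1862 genes up and 5369 down, and TMM 11 and 6, 11 and 9, and 3377 and 3360. Scaling by library totals called 2 members down and 3 pathway genes down, and 539 genes up and 2006 down over the whole table, a larger share of lower calls. It moved the median of the members to -0.18 and the log2 fold change of the summed counts to -0.40 for ligands, -0.37 for Frizzled receptors, 0.075 for co-receptors, 0.73 for antagonists, 0.26 for β-catenin with the TCF genes and 0.52 for all members. The same scaling turned the sign of 4 members that were not called, FZD9 (-0.013), LRP5 (-0.20), DKK1 (-0.18) and TCF7L1 (-0.18). Depth limits the ligands most, of which 12 of 17 had fewer than 10 counts.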

Other observations

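A list of 16 genes, mainly surface and matrix proteins known to hold or spread Wnt ligands, was made after the members' values were seen. Of the 16, 14 were in the table and 13 had a count. Of these 13, 4 were called up in steers and 0 down, and 11 had an adjusted p under 0.05 on that side in the exact binomial test. Over all genes tested 4.37% were called up, 8.13% down and 19.9% higher by adjusted p alone, and a list chosen in this way gives no independent support. For CTHRC1, a secreted matrix protein known to favour Wnt signalling through ROR2, the libraries held 191 and 12 counts, giving a log2 fold change of 3.87 (3.03 to 4.85). SULF2, a sulphatase that trims heparan sulphate, had 6601 and 3001 counts, at 1.02 (0.95 to 1.08). GPC4, a glypican, had 209 and 91 counts, at 1.08 (0.72 to 1.45). CPE, a carboxypeptidase known for hormone processing rather than for holding Wnt ligands, had 2549 and 580 counts, at 2.01 (1.88 to 2.15). CPZ of the same list had 995 and 627 counts, at 0.54 (0.40 to 0.69), and was not called.

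The 4 syndecans, membrane proteins that carry heparan sulphate, were between 0.25 and 0.89 on the log2 scale and 0 of them were called. SDC3 was the highest of them, from 1817 and 903 counts, at 0.89 (0.77 to 1.00). GPC6 lay at -0.12 (-0.67 to 0.43) with 58 counts in each library. BGN, the gene of the matrix proteoglycan biglycan, had 132710 and 71059 counts, at 0.78 (0.77 to 0.79), and so stayed below 2-fold. These values come from 1 pooled library per group, in which the fibroblast and matrix markers lay at 0.95 in sum. COL1A1, COL1A2 and COL3A1 held most reads of that sum, and single markers ran from -0.48 for PDGFRA to 1.27 for COL3A1. The part of matrix content in the values of the listed genes was not tested.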
